A study of Homo sapiens with 4 samples.

Results

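The guidance genes described here encode the semaphorins with their plexin and neuropilin receptors, the ephrins with their Eph receptors, the Slits with their Robo receptors, and the netrins with the UNC5 receptors. They were found by gene symbol in the deposited table of FPKM, and 70 of its 23615 symbols matched. The 70 comprised 7 class 3 and 13 class 4 to 7 semaphorins, 9 plexins, 2 neuropilins, 9 EphA and 5 EphB receptors, 5 ephrin-A and 3 ephrin-B genes, 3 Slits, 4 Robos, 4 UNC5 receptors and 6 netrins. The match by symbol used no measured value, but the members were chosen with earlier results of these data known.

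The series compared day 14 cardiomyocyte cultures made by different routes from RUES2, a human embryonic stem cell line, with 2 libraries per route. In both routes the cells received 100 ng/ml activin A, then 5 ng/ml BMP4 with 1 µM CHIR-99021, an activator of Wnt/β-catenin signaling. CPC cultures went through cardiac progenitor cells and had 1 µM XAV-939, a tankyrase inhibitor that lowers Wnt/β-catenin signaling, on day 3. ECsXAV cultures were first directed to anterior hemogenic endothelium with 200 ng/ml VEGF, 5 ng/ml bFGF and 10 ng/ml BMP4 from day 2, and had 2 µM XAV-939 from day 5. All libraries came from 1 cell line. The prefix of the sample names also differs between the routes, and whether they were grown in separate experiments cannot be told apart from the route itself. The cultures were not sorted, and in such bulk RNA fewer cells of a type and less RNA per cell cannot be told apart.

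Guidance molecules were first known from growing axons, which they attract or repel by acting on the actin cytoskeleton of the growth cone. In the developing heart the same families are known for boundaries between cell populations, vessel and valve growth, outflow tract septation and cardiac innervation. Secreted class 3 semaphorins bind a neuropilin, which passes the signal on through a plexin, whereas most membrane-bound semaphorins bind plexins directly. EphA receptors mostly bind the lipid-anchored ephrin-A proteins and EphB receptors the transmembrane ephrin-B proteins, and both partners can signal.

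FPKM are fragments scaled to gene length and library size, so levels of different genes can be compared. The relative depth, read from the steps between values of weakly expressed genes, was 50.1% to 86.9% of that of ECsXAV replicate 1 in the other libraries, and the total depth is unknown. Cardiomyocyte identity was checked first. TNNT2, cardiac troponin T, was at 2453 and 2309 FPKM in the ECsXAV libraries and at 2696 and 2988 FPKM in the CPC libraries. Of 14 listed endothelial markers, 8 were under 1 FPKM in every library. The 14 summed to 30.4 and 33.2 FPKM in ECsXAV and 29.2 and 26.6 FPKM in CPC. The highest were EGFL7, at 14.6 and 16.9 FPKM in ECsXAV and 12.05 and 13.07 FPKM in CPC, and KDR. KDR had 9.798 and 7.055 FPKM in ECsXAV and 10.85 and 8.69 FPKM in CPC. CDH5, TEK, VWF, ESAM, SOX18, EGFL7 and CD34 were higher in both ECsXAV libraries than in both CPC libraries. That order was held by 25.4% of all genes with a mean of at least 1 FPKM. EMCN had the opposite order, and the others overlapped. TEK, VWF, ESAM, SOX18 and CD34 had a mean under 1 FPKM over the 4 libraries, and VWF did not exceed 0.021 FPKM. PECAM1, which encodes the endothelial adhesion molecule CD31, did not exceed 0.233 FPKM in any library.

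Guidance genes were broadly expressed in both cultures, and 44 of the 70 reached 1 FPKM in all 4 libraries, while 14 stayed under 0.5 FPKM in all 4. The highest were NRP1, EFNB3, SLIT3, NRP2, UNC5B, EPHB3 and EFNA1. The 51 genes with a mean of at least 1 FPKM were tested with limma on log2(FPKM + 1), in one fit with all 12398 genes that passed the same filter, and the other 19 were not tested. Positive fold changes mean higher CPC levels (CPC minus ECsXAV). Because of the added 1, the changes of low genes come out too small. No gene taken alone can go below a two-sided p of 0.333 in an exact permutation test of 2 libraries against 2, so each adjusted p leans on the variance that limma shares over genes.

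EPHB2 was the 1 guidance gene that passed the criterion of an adjusted p under 0.05 and a change over 2-fold, and it was higher in CPC cultures. That was 1.96% of the 51 tested, beside 2.15% of all tested genes. With SEMA7A and SLIT3, which were also higher in CPC but by less than 2-fold on this scale, 3 guidance genes reached an adjusted p under 0.05, or 5.88% beside 2.89% of all tested genes. With microRNA and small nucleolar RNA genes left out of the fit, 7 of the 51 did, beside 7.98% of all genes then tested, EPHA7, EPHA8, SEMA3C and SEMA6D being added. An unadjusted p under 0.05 was reached by 19 guidance genes, 14 of them higher in CPC and 5 higher in ECsXAV, beside 18.2% of all genes. These 18.2%, and the 2.15% past the criterion, are also the background for the counts by family, partner list and marker list below. Of the 51, 29 had a positive and 22 a negative fold change, and their median log2 fold change was 0.09, beside -0.0045 over all tested genes. The positive ones were 56.9%, beside 49.2% of all tested genes, which is also the background for the counts of direction by family below. For 39 of the 51 the whole 95% interval of the change lay within 2-fold in either direction, which was 76.5% beside 87.7% of all tested genes.

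A second description counted genes with no overlap between the 2 groups of libraries and with means over 1.5-fold apart. It held for 12 guidance genes with higher CPC levels, 23.5% of the 51 beside a background of 5.21%, and for 5 with higher ECsXAV levels, 9.80% beside a background of 7.49%. The 12 were SEMA3A, SEMA3G, SEMA6D, SEMA7A, EPHA7, EPHA8, EPHB1, EPHB2, EPHB6, EFNA3, EFNA5 and SLIT3. The 5 were SEMA3C, EPHA2, EFNB2, UNC5D and NRP1, and NRP1 was counted through a value listed at 0 in CPC replicate 2, leaving 4 without it. EPHA8, EFNA5 and UNC5D passed the filter through the higher group alone, with a mean under 1 FPKM in the other. Replicates differed by a median of 1.16-fold in ECsXAV and 1.15-fold in CPC over the tested guidance genes. With NRP1 left aside, 3 differed by over 1.5-fold between the ECsXAV replicates and 9 between the CPC replicates.

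**Figure D1:**
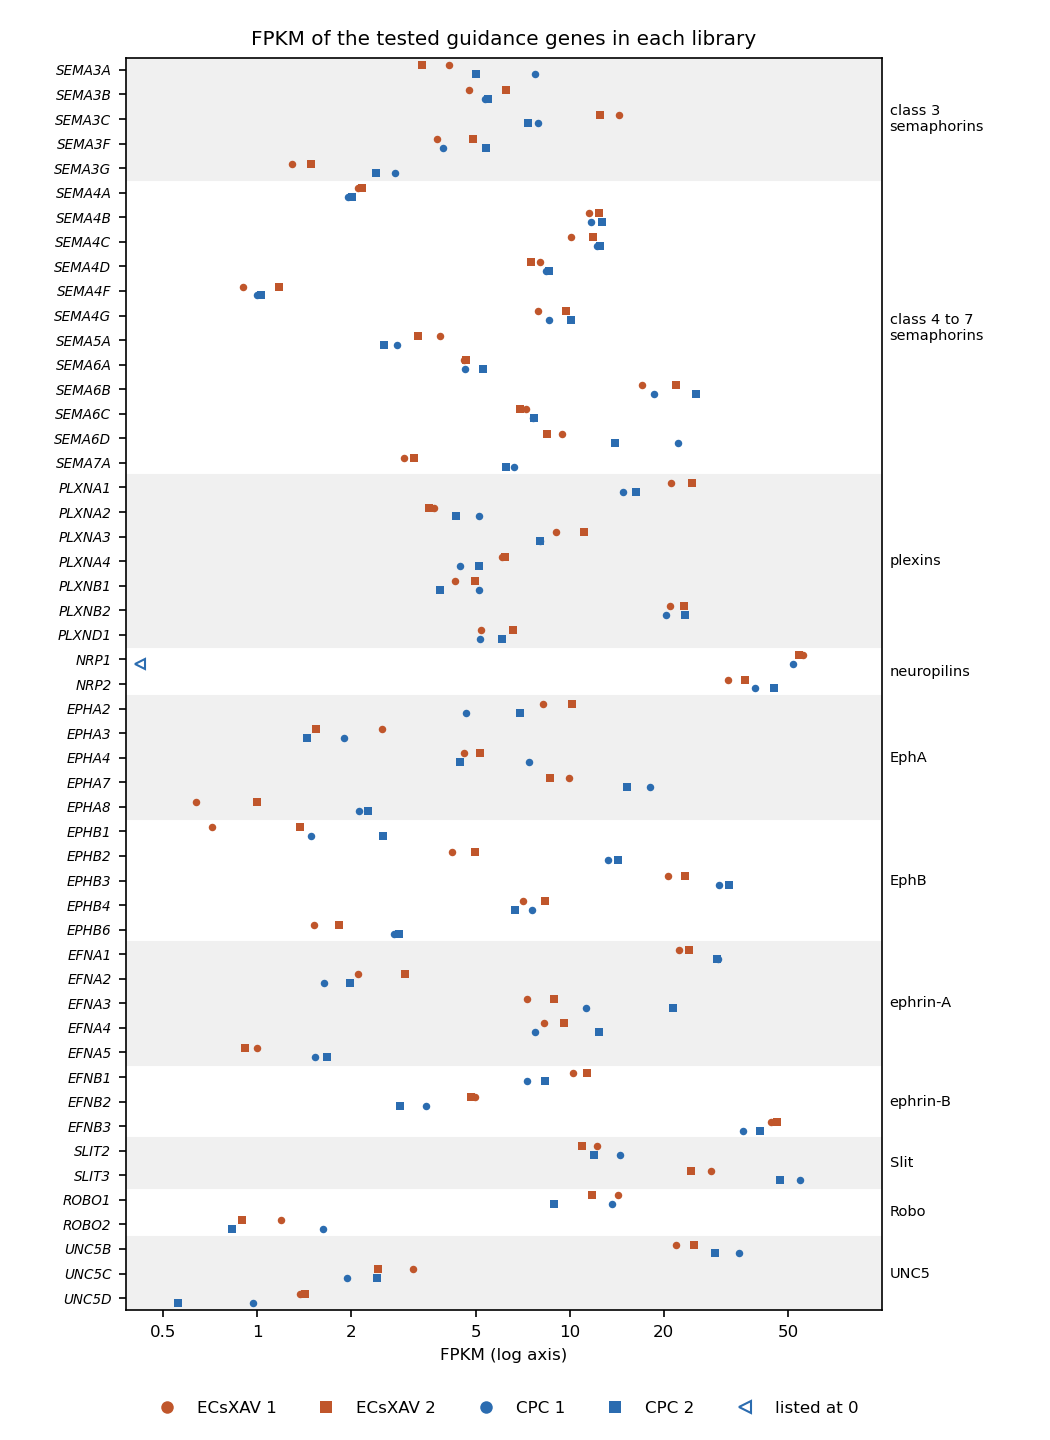
FPKM (log axis) of the 51 tested guidance genes in each of the 4 libraries, grouped by family, with ECsXAV in orange and CPC in blue and circles and squares for replicates 1 and 2. The CPC points of EPHB2 (13.3 and 14.3) lie right of its ECsXAV points (4.21 and 4.99), and the open triangle marks NRP1 listed at 0 in CPC replicate 2.

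**Figure D2:**
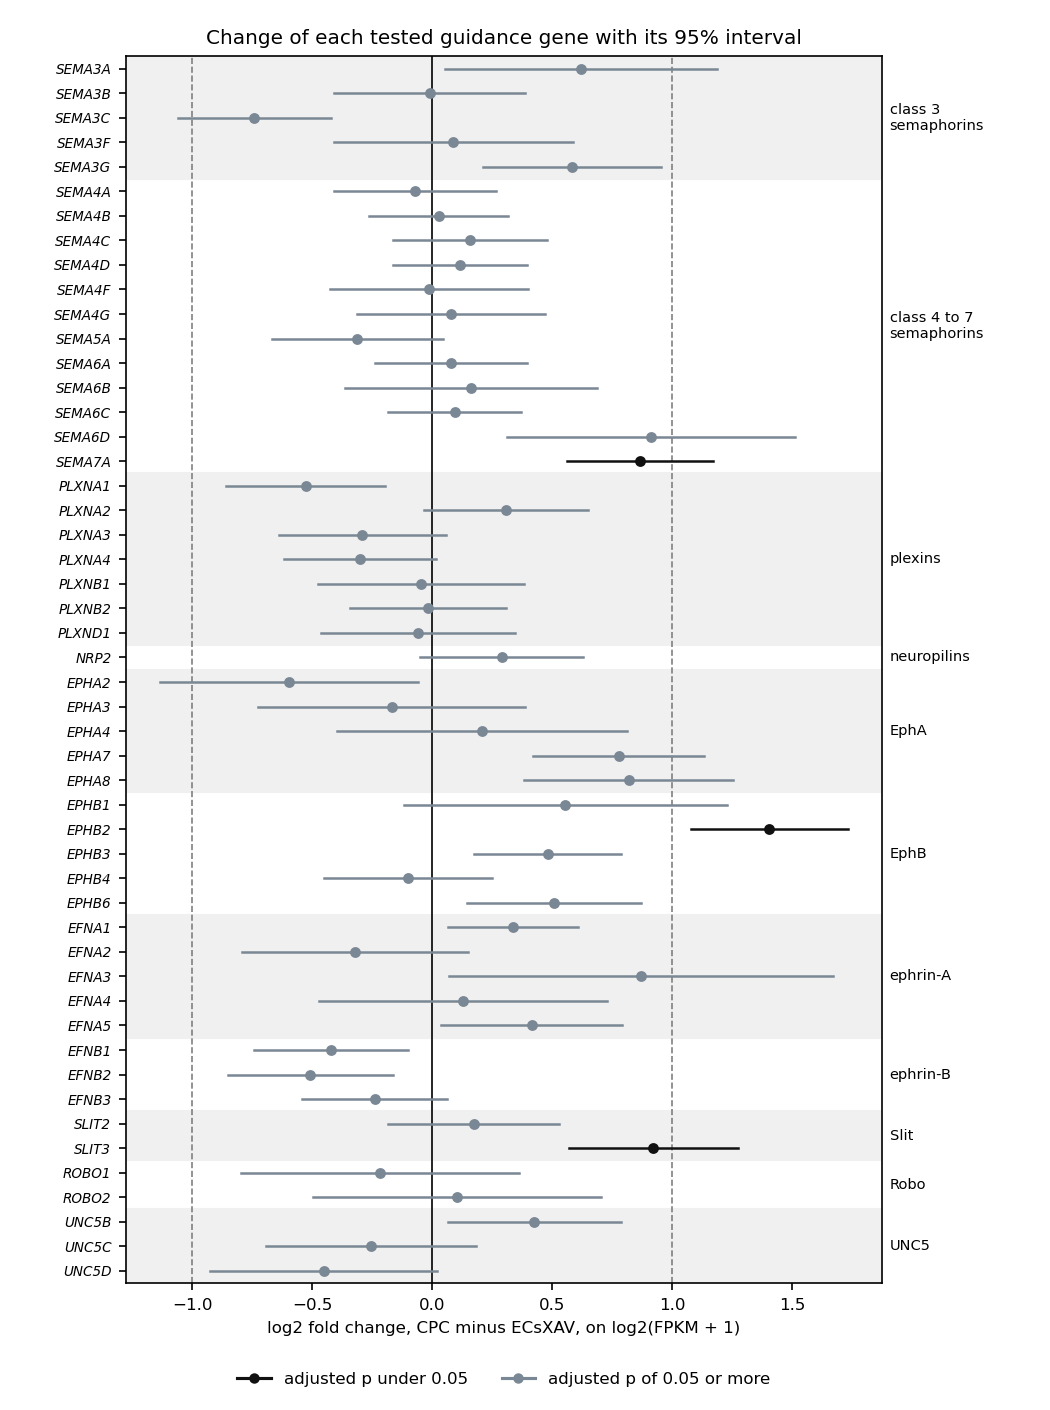
Log2 fold change, CPC minus ECsXAV, on log2(FPKM + 1), of the tested guidance genes with the 95% interval from limma as a bar, with NRP1 left out and dashed lines at 2-fold. Black marks an adjusted p under 0.05 (EPHB2, SEMA7A and SLIT3), and the interval of EPHB2, from 1.08 to 1.73, lies beyond the line.

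Among the EphB receptors, tyrosine kinases that meet ephrin-B on neighbouring cells, EPHB2 had 4.21 and 4.99 FPKM in the ECsXAV libraries and 13.3 and 14.3 FPKM in the CPC libraries. Both CPC values were above both ECsXAV values, so leaving out a library could not reverse the direction, and replicates lay close together in each group. Its mean was 3.0-fold higher in CPC, with a log2 fold change of 1.40 (standard error 0.13, 95% interval 1.08 to 1.73, adjusted p = 0.0184). Leaving out any 1 of the 4 libraries kept the direction, with log2 fold changes of 1.305 to 1.504, but ended the call, with adjusted p of 0.0592 without ECsXAV replicate 1, 0.0686 without ECsXAV replicate 2, 0.0943 without CPC replicate 1 and 0.0965 without CPC replicate 2. EPHB2 also moved past 0.05 without the filter on low FPKM, at an adjusted p of 0.063 over 18772 genes.

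EPHB3, the most abundant EphB receptor, had 20.7 and 23.4 FPKM in ECsXAV and 30.0 and 32.3 FPKM in CPC, a log2 fold change of 0.48 that missed the threshold (adjusted p = 0.125). EPHB6, whose kinase domain is known to be inactive, had 1.52 and 1.83 FPKM in ECsXAV and 2.75 and 2.85 FPKM in CPC (adjusted p = 0.151). EPHB1 had 0.717 and 1.37 FPKM beside 1.49 and 2.53 FPKM, so ECsXAV replicate 2 and CPC replicate 1 lay close together (adjusted p = 0.353). EPHB4, the receptor that marks venous endothelium, had 7.09 and 8.37 FPKM in ECsXAV and 7.59 and 6.67 FPKM in CPC, and its groups overlapped. EPHB2 held 12.4% ± 0.10 (SD, n = 2) of the summed EphB level in ECsXAV and 24.3% ± 0.16 (SD, n = 2) in CPC. EPHB4 held 20.8% ± 0.13 (SD, n = 2) in ECsXAV and 12.6% ± 1.70 (SD, n = 2) in CPC, so EPHB2 lay below EPHB4 in the order of levels in ECsXAV and above it in CPC. The summed EphB level was 34.2 and 40.0 FPKM in ECsXAV and 55.1 and 58.7 FPKM in CPC.

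EPHB2 lies on chromosome 1 from 23037332 to 23247993 (GRCh37, plus strand), and EPHA8, another Eph receptor gene, lies just upstream on the same strand from 22889982 to 22930088, with 107243 bases between them. EPHA8 had 0.638 and 0.996 FPKM in the ECsXAV libraries and 2.12 and 2.26 FPKM in the CPC libraries, so both CPC values were the higher. Its mean was 2.68-fold higher in CPC, but the log2 fold change of 0.82 missed the threshold (adjusted p = 0.087). The promoters of both genes are shown because these neighbours had the same direction. They come from the RefSeq table for GRCh38.p14 and run from 250 bases before to 50 bases after the start, with each CG dinucleotide in capitals.
EPHA8, chr1:22563239-22563538, plus strand: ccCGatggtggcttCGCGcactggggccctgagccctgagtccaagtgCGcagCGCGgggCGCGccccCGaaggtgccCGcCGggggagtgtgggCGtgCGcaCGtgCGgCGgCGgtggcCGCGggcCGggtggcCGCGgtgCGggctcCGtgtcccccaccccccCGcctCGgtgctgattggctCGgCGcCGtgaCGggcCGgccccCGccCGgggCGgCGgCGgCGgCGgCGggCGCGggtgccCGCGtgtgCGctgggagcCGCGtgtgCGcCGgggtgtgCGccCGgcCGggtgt
EPHB2, chr1:22710588-22710887, plus strand: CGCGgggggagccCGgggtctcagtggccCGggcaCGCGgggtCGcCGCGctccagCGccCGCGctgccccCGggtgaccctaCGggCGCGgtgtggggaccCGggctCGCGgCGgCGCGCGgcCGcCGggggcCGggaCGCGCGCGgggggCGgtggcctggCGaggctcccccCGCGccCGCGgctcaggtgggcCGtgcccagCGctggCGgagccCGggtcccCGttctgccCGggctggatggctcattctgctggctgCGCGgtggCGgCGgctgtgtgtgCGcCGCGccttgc
Both windows are dense in CG, with 51 in EPHA8 and 49 in EPHB2, beside a median of 14 over the first promoters of 27305 genes and of 21 over the 59 guidance genes found in that table. The letters CTTTGA, the core of the sites that TCF and LEF factors of the Wnt pathway are known to bind, were searched on both strands. They are not in either of these windows, and they are in those of 5 of the 59 guidance genes (8.47%: EPHA2, PLXNA1, ROBO4, SEMA6D and SLIT1) beside 13.1% of all genes.

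Between EPHA8 and EPHB2 lie C1QA, C1QC and C1QB, complement genes known from macrophages, and all 3 were listed at 0 in every library. Other genes around them are named after their values were seen. Within 1000000 bases of the EPHB2 start, the table held 22 protein-coding genes, of which 13 were tested, and EPHB2 had the largest change. The nearest tested neighbours on either side, ZBTB40 and KDM1A, had log2 fold changes of -0.08 and 0.10. CDC42, which encodes a GTPase that Eph receptors act on, was at 36.8 to 41.5 FPKM with a change of 0.02, and ID3 and TCEA3, farther off, had 0.78 and 0.61 (adjusted p = 0.06 and 0.08), while HSPG2, on the other side, had -0.68 (adjusted p = 0.0605).

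**Figure D3:**
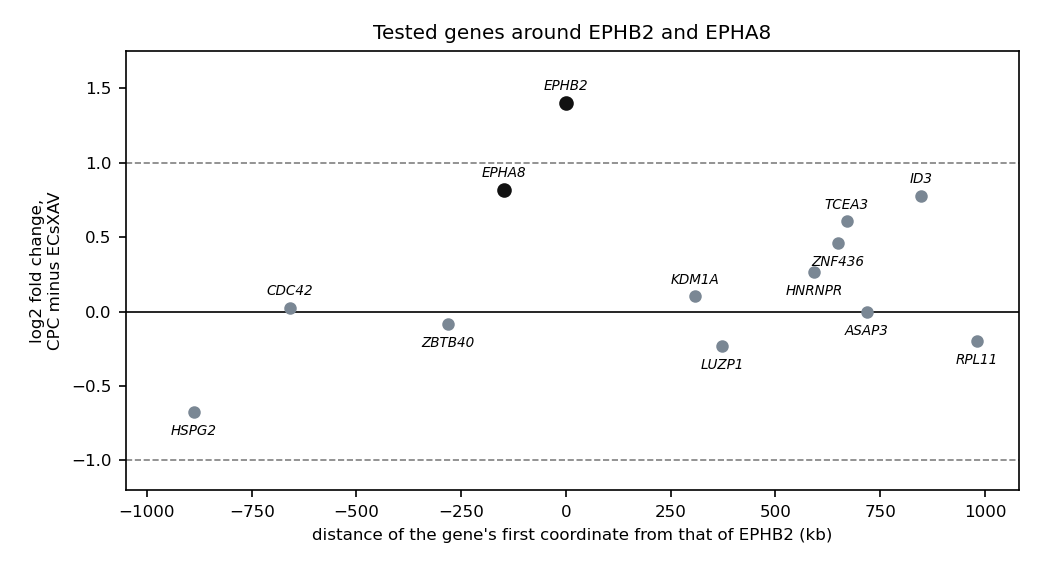
Log2 fold change, CPC minus ECsXAV, of the 13 tested protein-coding genes around EPHB2 against the distance of their first coordinate from that of EPHB2 in kb, with dashed lines at 2-fold. EPHB2 (1.40) and EPHA8 (0.82), in black, stand above ZBTB40 (-0.08) and KDM1A (0.10), their nearest tested neighbours.

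EPHA7 was the most abundant EphA receptor on average, with 9.94 and 8.67 FPKM in ECsXAV and 18.1 and 15.3 FPKM in CPC. Its groups did not overlap, and its log2 fold change was 0.78 (standard error 0.14, adjusted p = 0.0665). EPHA2, a receptor known from epithelia and vessels, had the opposite direction, with 8.22 and 10.2 FPKM in ECsXAV and 4.67 and 6.94 FPKM in CPC (log2 fold change -0.60, adjusted p = 0.232). In ECsXAV the shares of the summed EphA level were alike, at 35.3% ± 4.02 for EPHA7 and 34.7% ± 4.59 for EPHA2 (SD, n = 2), with EPHA7 ahead in replicate 1 and EPHA2 in replicate 2. In CPC EPHA7 held 51.5% ± 1.88 and EPHA2 18.2% ± 6.47 (SD, n = 2). EPHA4, which is known to bind ephrins of both classes, had 4.59 and 5.15 FPKM beside 7.42 and 4.44 FPKM, and EPHA3 also overlapped between the groups. EPHA1, EPHA5, EPHA6 and EPHA10 stayed under 0.12 FPKM in every library.

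**Figure D4:**
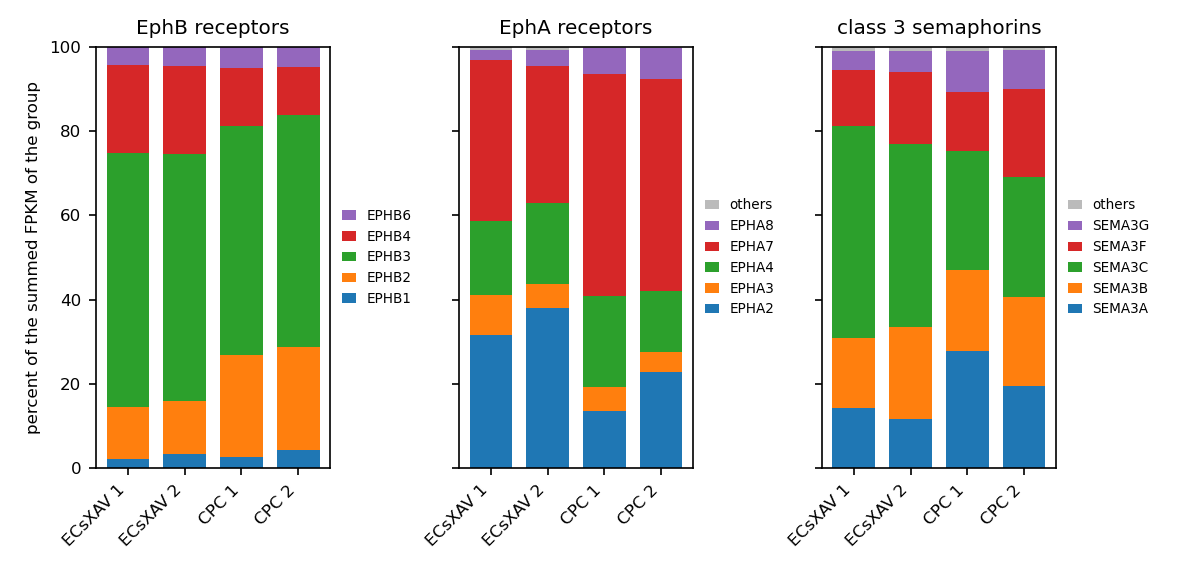
Percent of the summed FPKM of the EphB receptors, the EphA receptors and the class 3 semaphorins held by each member, as stacked bars for each of the 4 libraries, with members that hold under 2% in both groups pooled as others. The EPHB2 segment is 12.3% and 12.5% in ECsXAV and 24.1% and 24.4% in CPC, and the SEMA3C segment is 50.4% and 43.4% in ECsXAV and 28.2% and 28.5% in CPC.

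The ephrins are the ligands of these receptors. All 3 ephrin-B genes had lower levels in both CPC libraries than in both ECsXAV libraries, as did 25.4% of all tested genes. None passed the test, and 2 had an unadjusted p under 0.05. EFNB3, at 44.2 and 46.3 FPKM in ECsXAV and 35.8 and 40.7 FPKM in CPC, held 74.2% ± 0.19 of the summed ephrin-B level in ECsXAV and 77.6% ± 1.10 in CPC (SD, n = 2), and its log2 fold change was -0.24 (adjusted p = 0.375). EFNB2, the ephrin that marks arterial endothelium, had 4.98 and 4.83 FPKM in ECsXAV and 3.46 and 2.87 FPKM in CPC (log2 fold change -0.51, adjusted p = 0.139). EFNB1 had 10.3 and 11.4 FPKM beside 7.32 and 8.33 FPKM (adjusted p = 0.171). Summed ephrin-B levels were 59.4 and 62.4 FPKM in ECsXAV and 46.6 and 51.9 FPKM in CPC, the opposite order to the summed EphB receptors.

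Of the 5 ephrin-A genes, 4 had a positive fold change and EFNA2 a negative one, and none passed the test, with 3 at an unadjusted p under 0.05. EFNA1, the most abundant, had 22.4 and 24.2 FPKM in ECsXAV and 29.8 and 29.5 FPKM in CPC (log2 fold change 0.34, adjusted p = 0.188). EFNA3 had 7.32 and 8.90 FPKM in ECsXAV and 11.3 and 21.5 FPKM in CPC. Its 2 CPC replicates differed by more than CPC replicate 1 did from the ECsXAV libraries, and its log2 fold change of 0.87 had a standard error of 0.31 (adjusted p = 0.238). EFNA5 had 0.995 and 0.913 FPKM beside 1.53 and 1.68 FPKM (adjusted p = 0.235). EFNA4, EFNA3 and EFNA1 lie next to each other on chromosome 1, with 9283 and 40337 bases between them, and EFNA4 overlapped between the groups at 8.29 and 9.57 FPKM beside 7.73 and 12.4 FPKM.

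Of the 5 tested class 3 semaphorins, the secreted ligands, 3 had positive and 2 negative fold changes, and none passed the test, with 3 at an unadjusted p under 0.05. SEMA3C, which is known for its part in outflow tract septation, had 14.4 and 12.5 FPKM in ECsXAV and 7.90 and 7.37 FPKM in CPC, so its ECsXAV mean was 1.76-fold higher. Its log2 fold change of -0.74 (standard error 0.12) narrowly missed the threshold (adjusted p = 0.0584). SEMA3A, a repellent known for patterning the sympathetic nerves of the heart, had 4.10 and 3.37 FPKM in ECsXAV and 7.77 and 5.01 FPKM in CPC (log2 fold change 0.62, adjusted p = 0.235). SEMA3G had 1.296 and 1.48 FPKM beside 2.75 and 2.41 FPKM (log2 fold change 0.58, adjusted p = 0.125), while SEMA3B and SEMA3F overlapped between the groups. The summed class 3 level was 28.6 and 28.7 FPKM in ECsXAV and 28.0 and 25.9 FPKM in CPC. Of that sum SEMA3C held 46.9% ± 4.96 in ECsXAV and 28.4% ± 0.19 in CPC, and SEMA3A held 13.0% ± 1.83 in ECsXAV and 23.6% ± 5.93 in CPC (SD, n = 2).

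Among the membrane-bound semaphorins, SEMA7A, which is held in the membrane by a lipid anchor and is known to bind PLXNC1 and a β1 integrin, was higher in CPC cultures. It had 2.96 and 3.19 FPKM in ECsXAV and 6.62 and 6.24 FPKM in CPC, a 2.09-fold difference of means. The log2 fold change was 0.87 (standard error 0.12, adjusted p = 0.0409), and with 0.1 in place of 1 added to FPKM it was 1.04 (adjusted p = 0.0302), past the 2-fold limit. Without the filter on low FPKM the adjusted p was 0.086. Leaving out any 1 library raised the adjusted p to between 0.111 and 0.212. SEMA7A lies on chromosome 15 from 74701630 to 74726299 (GRCh37). SEMA6D, known from chick heart morphogenesis as a ligand of PLXNA1, had 9.48 and 8.45 FPKM in ECsXAV and 22.3 and 14.0 FPKM in CPC. Its groups did not overlap, but the CPC replicates lay far apart, and the log2 fold change of 0.91 had a standard error of 0.23 (adjusted p = 0.134). SEMA6B, the most abundant of these classes at 17.0 and 22.0 FPKM beside 18.6 and 25.4 FPKM, overlapped. The other 9 tested members of these classes had log2 fold changes between -0.31 (SEMA5A) and 0.16 (SEMA4C).

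The plexins, the signal-passing receptors of semaphorins, had a negative fold change in 6 of 7 tested genes, none past the test and 1 at an unadjusted p under 0.05. PLXNA1 had the largest, with 21.1 and 24.6 FPKM in ECsXAV and 14.8 and 16.3 FPKM in CPC (log2 fold change -0.53, adjusted p = 0.123). PLXNB2, the most abundant plexin on average, had 20.9 and 23.2 FPKM in ECsXAV and 20.3 and 23.3 FPKM in CPC, and its 95% interval ran from -0.34 to 0.31. PLXNA2 was the exception in direction, with 3.69 and 3.55 FPKM beside 5.14 and 4.32 FPKM (adjusted p = 0.317). PLXND1, a receptor known from vessels, had 5.20 and 6.60 FPKM in ECsXAV and 5.15 and 6.06 FPKM in CPC. PLXNB1, PLXNB2 and PLXND1 overlapped between the groups, with log2 fold changes of -0.05, -0.02 and -0.06.

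NRP2, the second neuropilin, had 32.0 and 36.5 FPKM in ECsXAV and 39.3 and 45.04 FPKM in CPC, a log2 fold change of 0.29 (adjusted p = 0.338). NRP1, which is also a VEGF co-receptor, was listed at 56.0, 54.3 and 51.9 FPKM in the ECsXAV libraries and CPC replicate 1, and at 0 in CPC replicate 2. All of its transcripts were at 0 in that library too. With short RNA genes left aside, 7 tested genes were at 0 in CPC replicate 2 beside at least 5 FPKM in CPC replicate 1. For 6 it was the other way round. Whether the 0 of NRP1 is an absence or a failed estimate was not tested. Without CPC replicate 2 the log2 fold change of NRP1 was -0.09. Without CPC replicate 1 it was -5.81 (adjusted p = 0.00831), so each value for NRP1 was decided by 1 library.

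SLIT3, a secreted ligand of Robo receptors, was among the highest guidance genes and was higher in CPC cultures, with 28.4 and 24.5 FPKM in ECsXAV and 54.7 and 47.3 FPKM in CPC. Its groups lay well apart, its mean was 1.93-fold higher in CPC, and the log2 fold change was 0.92 (standard error 0.14, adjusted p = 0.0451). It missed the threshold with quantile normalization (adjusted p = 0.065), without an intensity trend in the variance prior (adjusted p = 0.051) and without the filter on low FPKM (adjusted p = 0.086), and with any 1 library left out it was between 0.115 and 0.268. SLIT2 overlapped, with 12.2 and 10.9 FPKM in ECsXAV and 14.4 and 12 FPKM in CPC (adjusted p = 0.571). SLIT3 held 69.1% ± 0.62 of the summed Slit level in ECsXAV and 78.6% ± 0.69 in CPC (SD, n = 2).

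SLIT2 and SLIT3 each hold a copy of the gene for miR-218 inside the gene body and on the same strand, a microRNA known to target ROBO1. The copies are MIR218-1, on chromosome 4 from 20529898 to 20530007, and MIR218-2, on chromosome 5 from 168195151 to 168195260, within SLIT3 from 168088745 to 168728143 (GRCh37). The mature sequence from RefSeq (GRCh38.p14) is the same for both, and it is shown with its seed, bases 2 to 8, in capitals because the host SLIT3 had the higher CPC level.
hsa-miR-218-5p: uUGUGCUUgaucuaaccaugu
Both microRNA genes were listed at 0 in all 4 libraries, which were made from poly-A RNA, so the mature microRNA was not measured. ROBO1, the most abundant Robo receptor, had 14.3 and 11.8 FPKM in ECsXAV and 13.7 and 8.90 FPKM in CPC, so its groups overlapped (log2 fold change -0.22, adjusted p = 0.674). ROBO2 was near 1 FPKM, at 1.19 and 0.893 beside 1.62 and 0.828 FPKM. ROBO3 and ROBO4, the latter known from endothelium, stayed under 0.4 FPKM in every library. The summed Robo level was 16.1 and 13.4 FPKM in ECsXAV and 15.7 and 10.05 FPKM in CPC, beside 40.8 and 35.7 FPKM and 70.0 and 59.8 FPKM for the Slits.

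All 6 netrins were below the filter. The highest, NTN4, a netrin of basement membranes, had 1.19 and 0.819 FPKM in ECsXAV and 0.396 and 0.664 FPKM in CPC, and NTN1 stayed under 0.13 FPKM. Their UNC5 receptors were nevertheless present. UNC5B had 21.9 and 25.0 FPKM in ECsXAV and 34.8 and 29.1 FPKM in CPC, with no overlap and a log2 fold change of 0.43 (adjusted p = 0.207), and it held 83.7% ± 2.17 of the summed UNC5 level in ECsXAV and 91.3% ± 1.04 in CPC (SD, n = 2). UNC5D had 1.37 and 1.42 FPKM beside 0.969 and 0.559 FPKM (log2 fold change -0.45, adjusted p = 0.292), and UNC5C had 3.15 and 2.43 FPKM beside 1.93 and 2.42 FPKM. DCC, the attractive netrin receptor, did not exceed 0.009 FPKM, whereas its relative NEO1 had 9.71 and 9.21 FPKM in ECsXAV and 14.2 and 13.4 FPKM in CPC (adjusted p = 0.093).

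The 19 guidance genes below the filter had a highest single value of 1.40 FPKM, that of PLXNC1 in CPC replicate 1. Of these 19, 3 lay over 1.5-fold higher in the CPC mean with no overlap, beside 14% of all genes read but below the filter, and 8 in the ECsXAV mean, beside 19.9%. They were tested only in the fit without the filter, where none had an adjusted p under 0.05 in limma and 7 had an unadjusted one. The share of all genes in that fit was not taken, so the 7 have no background. PLXNC1, the plexin that SEMA7A binds, had 0.503 and 0.538 FPKM in ECsXAV and 1.40 and 0.906 FPKM in CPC, and SLIT1 had 0.175 and 0.239 FPKM beside 0.895 and 0.528 FPKM. SEMA5B went the other way, with 0.709 and 0.556 FPKM in ECsXAV and 0.144 and 0.210 FPKM in CPC.

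The transcript table held 127 RefSeq transcripts of the guidance genes, of which 64 had a mean of at least 1 FPKM and were tested. None passed the criterion in limma, beside 0.0727% of all 16504 tested transcripts. An unadjusted p under 0.05 was reached by 14, with a smallest adjusted p of 0.119. The share of all tested transcripts at an unadjusted p under 0.05 was not taken, so the 14 have no background. EPHB2 was assigned almost wholly to NM_017449, at 4.21 and 4.98 FPKM in ECsXAV and 13.3 and 13.8 FPKM in CPC, and EPHA8 mostly to NM_001006943. For 11 genes at least 2 transcripts had a mean of 1 FPKM, and there the split was often unlike between replicates. SEMA3B shows this, since its gene level overlapped between the groups. Its transcript NM_001005914 took 97.0% and 95.4% of the gene in the ECsXAV libraries, 52.5% in CPC replicate 1 and 0.089% in CPC replicate 2. NM_004636 took the rest, and its difference did not pass the test (adjusted p = 0.22). NRP2 was steadier, with NM_201267 at 6.52 and 10.6 FPKM in ECsXAV and 14.4 and 15.6 FPKM in CPC (adjusted p = 0.36). For ROBO1, the share of NM_133631 was 54.6% and 21.6% in ECsXAV and 8.63% and 4.26% in CPC, with a wide gap between the ECsXAV replicates. For SEMA4D, NM_006378 took 10.6% and 10.3% of the gene in ECsXAV and 34.3% and 20.6% in CPC (adjusted p = 0.37).

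**Figure D5:**
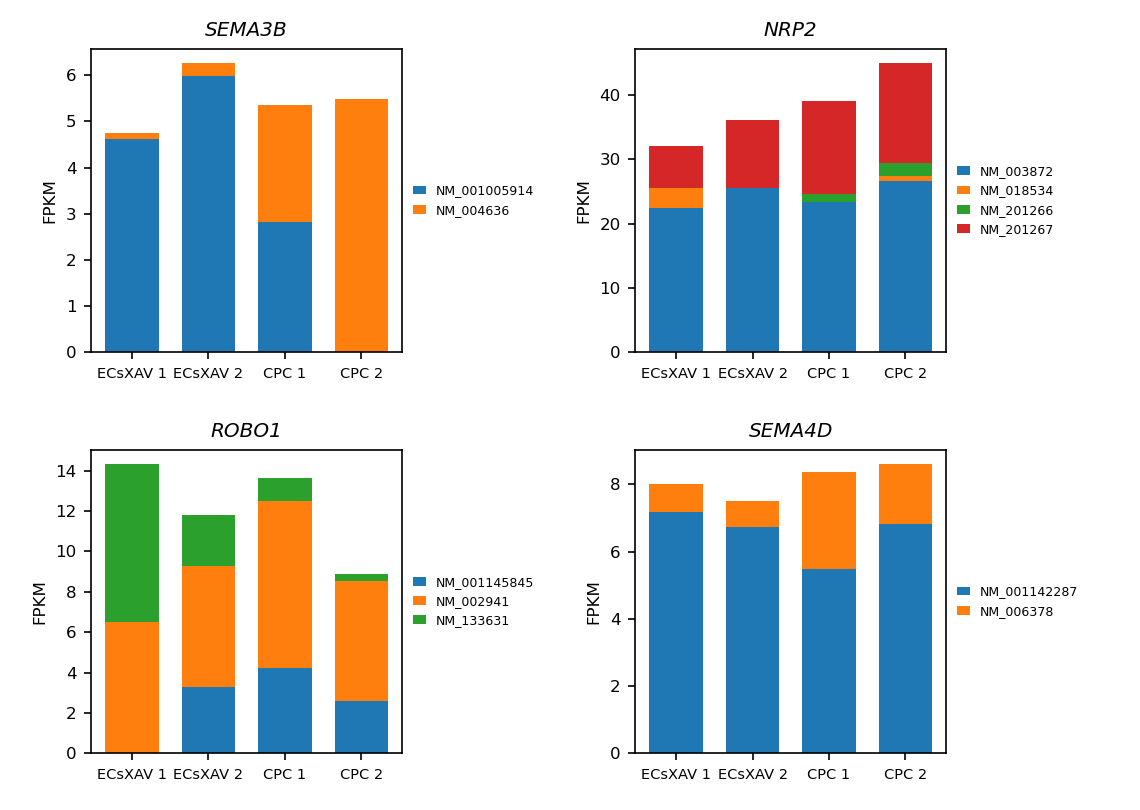
FPKM of the RefSeq transcripts of SEMA3B, NRP2, ROBO1 and SEMA4D in each of the 4 libraries, stacked by transcript, for transcripts that reach 0.5 FPKM in some library. In SEMA3B the NM_001005914 segment is 4.61 and 5.97 FPKM in ECsXAV, 2.81 FPKM in CPC replicate 1 and near 0 in CPC replicate 2.

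Co-receptors, further ligands, GTPase regulators, cytoplasmic effectors and shedding proteases of these pathways were taken from a list of 70 partner genes, of which 59 were tested. In limma, none was past the criterion with higher CPC levels (3 at an unadjusted p under 0.05) and 2 were with higher ECsXAV levels (6 at an unadjusted p under 0.05), beside 2.15% of all tested genes in either direction. The median log2 fold change of the 59 was -0.0021. CRMP1, a collapsin response mediator that acts downstream of semaphorin 3A, fell from 15.7 and 12.8 FPKM in ECsXAV to 5.19 and 5.15 FPKM in CPC (log2 fold change -1.301, adjusted p = 0.0247). ITGA1, the integrin α1 chain that pairs with β1 in a SEMA7A and collagen receptor, fell from 1.92 and 2.12 FPKM to 0.249 and 0.321 FPKM (log2 fold change -1.23, adjusted p = 0.0353). ITGA1 passed the filter through the ECsXAV libraries alone. With 1 library left out, CRMP1 lost its call each time (adjusted p of 0.0778 to 0.111). ITGA1 lost it without either CPC replicate (0.105 and 0.099) and fell below the filter without either ECsXAV replicate. No other of the 30 tested cytoplasmic effectors and none of the 16 GTPase regulators passed. RHOA, a GTPase at the end of these pathways, was at 148, 149, 141 and 149 FPKM and CFL1, cofilin, at 170, 175, 175 and 194 FPKM in the order ECsXAV 1, ECsXAV 2, CPC 1 and CPC 2.

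Some markers of other cells differed between the groups, and the part of such cells in the guidance gene differences was not tested. Of 10 fibroblast and epicardial markers, LUM and COL1A1 were past the criterion with higher ECsXAV levels. The summed level was 89.3 and 113 FPKM in ECsXAV and 54.2 and 47.4 FPKM in CPC, with TCF21 and WT1 under 0.15 FPKM throughout. COL1A1 alone had 59.6 and 80.6 FPKM in ECsXAV and 28.8 and 28.0 FPKM in CPC. The other tested ones, PDGFRA and POSTN, had positive log2 fold changes of 0.19 and 0.15 (adjusted p = 0.602 and 0.616 in limma). Of 6 smooth muscle markers TAGLN was past the criterion with higher ECsXAV levels, with sums of 315 and 287 FPKM beside 173 and 198 FPKM. TAGLN had 116 and 108 FPKM in ECsXAV and 15.8 and 22.6 FPKM in CPC. CNN1 also had the lower CPC levels, at 94.2 and 94.9 FPKM beside 45.5 and 60.5 FPKM, while ACTA2 and SMTN overlapped. MYH11, under 0.44 FPKM, had the higher CPC levels (0.084 and 0.154 FPKM beside 0.351 and 0.433 FPKM). LMOD1 had the higher CPC levels (18.6 and 20.2 FPKM beside 31.7 and 30.0 FPKM, adjusted p = 0.06 in limma). Of 10 neural and neural crest markers TUBB3 was past it with higher ECsXAV levels, while SOX10 did not exceed 0.176 FPKM in any library. The 10 summed to 6.24 and 5.59 FPKM in ECsXAV and 3.34 and 2.29 FPKM in CPC. TUBB3 alone had 3.69 and 3.39 FPKM in ECsXAV and 0.498 and 0.6503 FPKM in CPC. DCX, the other tested one, overlapped, with 1.71 and 1.03 FPKM in ECsXAV and 2.24 and 1.304 FPKM in CPC. The sum without TUBB3 was not taken. Of 10 hepatic and endoderm markers AFP and TTR were past the criterion with higher ECsXAV levels, with sums of 42.8 and 36.7 FPKM beside 19.5 and 21.7 FPKM. Of 10 paraxial mesoderm and skeletal muscle markers UNCX was past it with higher CPC levels, with sums of 1.19 and 1.88 FPKM beside 7.93 and 6.26 FPKM, and MYF5 and PAX7 were at 0. Without UNCX the other 9 summed to 1.09 and 1.752 FPKM in ECsXAV and 1.66 and 1.55 FPKM in CPC. LUM, TUBB3, AFP and UNCX passed the filter through the higher group alone, with a mean under 1 FPKM in the other. The 8 cardiomyocyte markers summed to 13987 and 13567 FPKM in ECsXAV and 12432 and 13133 FPKM in CPC, with MYH6 past the criterion with higher CPC and MYH7 with higher ECsXAV levels. No endothelial, blood or pluripotency marker was past it in limma, with 5 of 14, 2 of 6 and 1 of 4 tested and 0, 1 and 1 of them at an unadjusted p under 0.05. Blood markers summed to 4.15 and 6.12 FPKM in ECsXAV and 1.54 and 1.10 FPKM in CPC, with PTPRC at 0 throughout. HBE1 alone had 2.13 and 4.55 FPKM in ECsXAV and 0.338 and 0.184 FPKM in CPC, and passed the filter through the ECsXAV libraries alone. CD68, the other tested one, had 1.15 and 1.04 FPKM beside 0.993 and 0.828 FPKM. Pluripotency markers summed to 6.87 and 3.41 FPKM in ECsXAV and 1.97 and 1.67 FPKM in CPC, with NANOG at 0.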

How the data were processed

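Poly-A RNA from 2 ECsXAV and 2 CPC cultures had been sequenced, and the sample labels gave the group and replicate number of each. The authors deposited FPKM per gene and per RefSeq transcript, computed with Cufflinks from reads placed on hg19. The submitters' processing notes name TopHat 1.3.3 and the methods Cufflinks 2.1.1. Read counts were not used here. The authors' scaling between libraries is not given in the sources used here. The gene table repeats symbols that have several loci, and the entry with the highest mean was used, while each guidance gene had 1 entry.

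Genes whose mean reached 1 FPKM were tested on log2(FPKM + 1) with the trended variance prior of limma 3.58.1 (R 4.3.3), and Benjamini-Hochberg adjustment ran over all of them. The criterion was an adjusted p under 0.05 and over 2-fold. The steps were also run on simulated libraries with independent noise and planted log2 changes of 2 in size. That run cannot speak for changes near 2-fold. Coordinates are GRCh37 (hg19) ones from the lifted GENCODE release 44, and sequences come from RefSeq tables for GRCh38.p14. Python 3.11.15 with NumPy 2.4.6, pandas 2.3.3 and matplotlib 3.10.9 made the tables and figures.

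Genes named are those past the criterion, the most abundant and the most changed member of each family, and those with groups apart by over 1.5-fold. Other members are named for a shared family, position or receptor, after their values were seen. The members and lists were chosen with earlier results of these data known. The paper calls the 2 libraries of each group biological replicates. Nothing says which cultures were grown together, so p-values measure the spread between these libraries alone. Alternatives were another pseudocount, filter, scaling or variance prior, summed loci, short RNA genes left out, the replicate number as a block, and each library left out.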

Additional observations from a re-analysis of the deposited data

How the results depend on the processing

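With 1 guidance gene past the criterion as reported, adding 0.1 in place of 1 to FPKM gave 2 (EPHB2 and SEMA7A), both higher in CPC, and dropping the filter on low FPKM gave 0. Leaving out 1 library gave 0 to 1, with 0 higher in CPC each time and 0 to 1 higher in ECsXAV, the 1 being NRP1 without CPC replicate 1. The lone library left in a group is then assumed to vary like the other group. The median log2 fold change of 0.0875 became -0.009251 without the filter, which brought in 19 weakly expressed members, and ran from -0.003159 to 0.0979 with a library left out. The 2 partner genes became 0 without the filter, 1 at a mean FPKM of at least 5, 1 with quantile normalization and 0 with any library left out, and with 0.1 added to FPKM the 2 were CRMP1 and GPC1 in place of CRMP1 and ITGA1. With the replicate number as a block, 1 guidance gene (EPHB2, adjusted p = 0.0353) and 1 partner gene passed, and SEMA7A had an adjusted p of 0.0648. The labels do not say that a number marks a shared culture day, and with 2 pairs the check could not settle it. Between the groups, the differences of replicate 1 from replicate 2 had a rank correlation of 0.356 and a Pearson correlation of 0.0349 over the tested genes, which are not independent replicates. Leaving out short RNA genes gave 7 guidance genes at an adjusted p under 0.05, beside 7.98% of all genes, and still 1 past the criterion.

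Of the 26 named members, 3 changed sign with a library left out, with log2 fold changes of -0.1136 to 0.0774 for PLXNB2, -0.5015 to 0.0656 for ROBO1 and -0.0517 to 0.3765 for SEMA6B. The causes were not tested. Over all alternatives, 328 of 340 values of named members kept their direction and their side of the criterion of adjusted p and fold together. This count is no measure of robustness, since most named members were never past the criterion. Members named because their groups did not overlap also keep their direction with any library left out. The losses of the EPHB2 call are given above. The total depth is unknown, and genes under 1 FPKM were tested only in the fit without the filter.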
